A study of Mus musculus with 36 samples.

Results

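The early growth response genes Egr1, Egr2, Egr3 and Egr4 and the corepressor genes Nab1 and Nab2 were followed in mouse cortical neurons after stimulation by BDNF or depolarization by KCl. These 6 genes were taken by name as a transcription factor family with its repressor partners. All 6 were found by Ensembl identifier among the 26709 genes of the RNA table, and 6 of 6 had a mean of at least 10 normalized reads over the 18 libraries, as did 16209 genes in all. Egr4 passed that filter only through its stimulated libraries, because its control level had a median of 3.45 normalized reads.

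Egr proteins are zinc finger transcription factors that bind GC-rich DNA, and their genes are immediate early genes: growth factor receptors and calcium entry act through MAPK signaling on serum response factor (SRF) with its Elk partners, and through CREB, to start their transcription without new protein synthesis. Nab1 and Nab2 carry no DNA-binding domain of their own but bind Egr1, Egr2 and Egr3 and recruit repressor complexes to their targets, whereas Egr4 lacks the domain that Nab proteins recognize. In cortex Egr1 and Egr3 are known for synaptic plasticity and memory, and Egr2 is best known for hindbrain patterning and for myelination by Schwann cells.

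Cultures came from the cortices of CD-1 embryos at embryonic day 15, with the tissue of the embryos pooled, and were grown for 7 days in vitro. Every culture first received 100 µM AP-5, which blocks NMDA receptors, and 1 µM TTX, which blocks sodium channels, for 2 h. BDNF (10 ng/ml), the ligand of the TrkB receptor, or KCl (55 mM), which opens voltage-gated calcium channels, then acted for 1, 6 or 10 h, and the controls of each time were left in AP-5 and TTX without a stimulus. Each of these 9 groups had 2 libraries of RNA-seq and 2 of ATAC-seq, which reads open chromatin, so that the controls of the 3 times together gave 6 libraries per assay. The study calls the replicates biological, but the labels do not say whether they were separate cultures, so p-values measure the spread between these libraries.

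RNA libraries held 8.51 to 36.7 M reads (median 11.6 M) and ATAC libraries 1.24 to 6.24 M reads in peaks (median 3.55 M). Chi-square per degree of freedom between RNA replicates was 2.43 to 39.2, with the KCl 6 h pair the highest, and between ATAC replicates 2.04 to 2.58. The 8 neuron markers summed to 44658 to 55124 normalized reads in every stimulated library and to 48939 to 54447 in controls. But within that sum BDNF 1 h had 2 of the 8 above and 2 below controls as calls (21.3% and 19.0% of all genes). Against KCl 1 h it had 2 above and 5 below (24.6% and 18.2% of all genes). Markers of other cells moved with the groups. The 3 markers of GABAergic neurons summed to 4593 to 5971 in controls, 6093 to 7659 at KCl 1 h, 8519 to 8756 at BDNF 1 h and 8835 to 9808 at KCl 6 h. The 6 markers of astrocytes and radial glia summed to 17332 to 20058 in controls and 13561 to 16313 at KCl 6 h. With BDNF they summed to 20619 to 20688 at 1 h and 16104 to 16329 at 6 h. The 3 markers of dividing cells summed to 3619 to 6126 in controls and 2540 to 2749 at KCl 6 h. With BDNF these summed to 3164 to 3462 at 6 h and 3300 to 3382 at 10 h. The 6 microglia markers summed to 80.5 to 136 over all libraries and the 5 endothelial and mural markers to 358 to 1394, with Cldn5 at 0 in 10 of 18 libraries. The 5 markers of the oligodendrocyte lineage summed to 5689 to 6184 in controls, 4180 to 4695 at KCl 1 h, 6720 to 7066 at KCl 6 h, 6472 to 7116 at KCl 10 h and 5181 to 6432 over the BDNF libraries. In bulk RNA a change in the share of a cell type and a change in RNA per cell cannot be told apart, and the part of these markers in the changes of the Egr and Nab genes was not tested.

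Coordinates are those of mm10 with GENCODE M21 genes. Egr1 (ENSMUSG00000038418) lies at chr18:34859823-34864984 on the plus strand, Egr2 (ENSMUSG00000037868) at chr10:67535475-67542188 on the plus strand, Egr3 (ENSMUSG00000033730) at chr14:70077203-70082614 on the plus strand and Egr4 (ENSMUSG00000071341) at chr6:85511121-85513589 on the minus strand. Nab1 (ENSMUSG00000002881) lies at chr1:52457294-52500679 and Nab2 (ENSMUSG00000025402) at chr10:127660918-127668568, both on the minus strand. Nab2 was the only one of the 6 whose exons overlap those of other genes, all on the opposite strand, and whether reads were counted by strand is not given in the sources used here. Its overlap was 1050 bp with the antisense gene Gm16229, which held 0 to 3.66 normalized reads, 151 bp with Nemp1 and 40 bp with Stat6.

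RNA levels are read counts divided by the size factor of the library, and changes are differences of log2(level + 1) against all 6 controls, tested with limma over 16209 genes and called at a Benjamini-Hochberg adjusted p below 0.1. After 1 h of BDNF all 6 genes were higher than controls, where 40.4% of all genes tested were called, 21.3% higher and 19.0% lower. All 6 stayed above controls later in BDNF, where 43.3% of all genes were called at 6 h (22.1% higher, 21.1% lower) and 40.6% at 10 h (21.1% higher, 19.5% lower). After 1 h of KCl 5 of the 6 were higher and Nab2 was lower, where 54.7% of all genes were called, 26.5% higher and 28.2% lower. At KCl 6 h those 5 were higher again (66.5% of all genes, 33.4% higher and 33.1% lower), and at KCl 10 h 4 were higher and Egr1 was lower (57.2%, 29.0% higher and 28.2% lower). These shares are large, so the count of called genes is not by itself a mark of the family at the KCl times. Controls of 6 h or 10 h gave 0 called genes (0.00%) against controls of 1 h with limma, edgeR or DESeq2. At an unadjusted p below 0.05 limma gave 164 genes for 6 h and 181 for 10 h, edgeR 236 and 193 and DESeq2 57 and 44, among them 1 Egr or Nab gene at each time with limma, 0 with edgeR, and 1 and 0 with DESeq2.

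**Figure D1:**
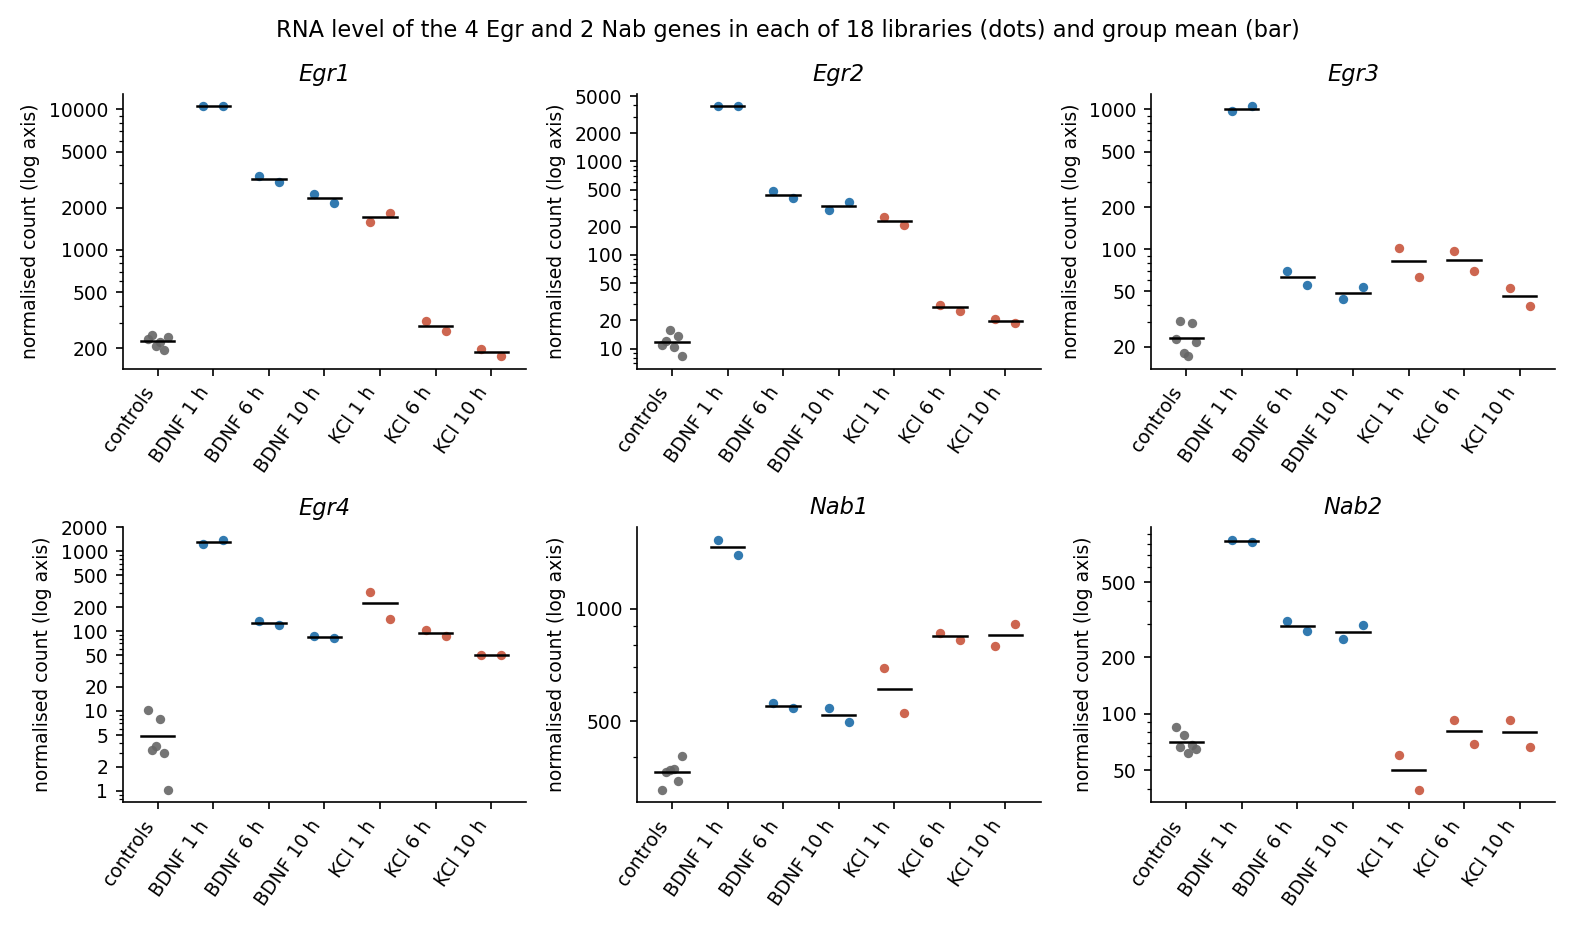
RNA level of each gene in each library, as normalized reads on a log axis whose range differs between panels, with dots for libraries and bars for group means. The 2 BDNF 1 h libraries are the highest of the 18 for all 6 genes, and Nab2 at KCl 1 h (39.6 and 60.5 normalized reads) lies below the 6 controls.

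Egr1, the founding member of the family, had 194 to 247 normalized reads in controls (median 225). BDNF gave 10503 and 10568 after 1 h, 3378 and 3060 after 6 h and 2514 and 2159 after 10 h. KCl gave 1590 and 1838 after 1 h, 312 and 266 after 6 h and 197 and 175 after 10 h. Every BDNF library thus lay above every KCl library of Egr1, and only KCl 10 h overlapped the controls. The rise at BDNF 1 h was 5.56 on the log2 scale (SE 0.09, adjusted p = 2.61e-21), the 10th largest of all genes tested. The difference between BDNF and KCl went from 2.62 (SE 0.11) at 1 h to 3.48 at 6 h and 3.64 at 10 h. At KCl 10 h the change was -0.26 (SE 0.09, adjusted p = 0.0252), and the call was lost on omitting library B of KCl 10 h (-0.17, adjusted p = 0.280) and against the 10 h controls alone (-0.20, adjusted p = 0.181).

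Egr2 was the gene with the largest rise of all genes tested at BDNF 1 h. Its controls held 8.30 to 15.6 normalized reads (median 11.5). BDNF gave 3868 and 3913 after 1 h, 477 and 408 after 6 h and 302 and 366 after 10 h. KCl gave 253 and 209 after 1 h, 29.5 and 25.5 after 6 h and 20.8 and 18.5 after 10 h. No 2 groups of Egr2 that were neighbors in the order of levels overlapped, with only 2 libraries in each stimulated group. By limma the change from 6 to 10 h was not called with BDNF (-0.41, adjusted p = 0.903) or with KCl (-0.46, adjusted p = 0.153). The KCl libraries of 6 and 10 h held 17 to 30 reads of Egr2. The change was 8.27 at BDNF 1 h (SE 0.18, adjusted p = 1.56e-19) and 4.20 at KCl 1 h (SE 0.18, adjusted p = 2.07e-14), and it remained 4.73 at BDNF 10 h and 0.71 at KCl 10 h (adjusted p = 0.00195). The gap between the stimuli was nearly level in time, at 4.08, 3.96 and 4.01 for 1, 6 and 10 h (SE 0.22 each).

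The promoter of Egr2 is shown because it holds letters that match the sites of SRF and of CREB. RefSeq lists several start sites, and one whose 250 bases before the start hold both kinds of match was picked for that reason. These bases lie at chr10:67537619-67537868 on the plus strand (GRCm38.p6, which is mm10). Capitals mark a CArG box, the site named for SRF, and 2 matches on either strand to TGACG, the short form of the CREB site, which also lies within the full site TGACGTCA.
Egr2 promoter: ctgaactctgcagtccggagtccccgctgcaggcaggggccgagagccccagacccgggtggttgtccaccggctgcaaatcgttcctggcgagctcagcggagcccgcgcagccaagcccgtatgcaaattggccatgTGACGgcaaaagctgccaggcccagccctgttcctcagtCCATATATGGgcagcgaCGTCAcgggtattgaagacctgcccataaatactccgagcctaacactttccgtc
The CArG box runs from position -72 to -63 before the start. The window of another Egr2 start (chr10:67537316-67537565) holds a different CArG box and no TGACG. Of 32851 RefSeq promoter windows of 250 bases, 1.47% held a CArG box and 17.8% held TGACG on either strand.

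Egr3, the family member known for muscle spindle development and for memory, had a short response to BDNF. Its controls held 17.1 to 30.7 normalized reads (median 22.2). BDNF gave 967 and 1059 after 1 h, 70.3 and 55.8 after 6 h and 44.1 and 53.7 after 10 h. KCl gave 102 and 63.1 after 1 h, 97.3 and 69.5 after 6 h and 52.6 and 39.2 after 10 h. From 6 h on, the BDNF and KCl libraries of Egr3 therefore lay in the same range, and all were above the controls. The change was 5.41 at BDNF 1 h (SE 0.22, adjusted p = 2.40e-14) and 1.42 at BDNF 6 h. The change between these times, -3.99 (SE 0.27), was the 3rd largest fall of all genes tested. With KCl the change was 1.78 at 1 h and 1.81 at 6 h, and the difference between these times was 0.03 (95% interval -0.54 to 0.60). BDNF and KCl differed by 3.64 at 1 h (SE 0.27, adjusted p = 9.66e-10), while the difference was not called at 6 h (-0.39, interval -0.96 to 0.18) or at 10 h (0.10, interval -0.47 to 0.67).

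Egr4, the member without the Nab-binding domain, was nearly silent in controls, with 1.04 to 10.2 normalized reads (median 3.45) from 1 to 31 reads per library. BDNF gave 1238 and 1401 normalized reads after 1 h, 133 and 120 after 6 h and 85.9 and 81.7 after 10 h. KCl gave 305 and 140 after 1 h, 102 and 85.7 after 6 h and 50.1 and 50.1 after 10 h. All stimulated libraries of Egr4 lay above all controls. The change at BDNF 1 h was 8.04 (SE 0.49, adjusted p = 2.28e-08), the 2nd largest rise of all genes. It depended on the scale at so low a control level, being 7.14 with a pseudocount of 5. At KCl 1 h it was 5.37 (SE 0.49, adjusted p = 7.72e-07), the 8th largest rise for that stimulus. BDNF exceeded KCl by 2.66 at 1 h (SE 0.60, adjusted p = 0.00332), and the difference was not called at 6 h (0.43, interval -0.87 to 1.73) or 10 h (0.73, interval -0.57 to 2.03).

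The 250 bases before the start of Egr4 (chr6:85513590-85513839, minus strand, GRCm38.p6, RefSeq) are shown for comparison with Egr2, with TGACG matches in capitals. They hold 2 of these matches and no CArG box in these letters.
Egr4 promoter: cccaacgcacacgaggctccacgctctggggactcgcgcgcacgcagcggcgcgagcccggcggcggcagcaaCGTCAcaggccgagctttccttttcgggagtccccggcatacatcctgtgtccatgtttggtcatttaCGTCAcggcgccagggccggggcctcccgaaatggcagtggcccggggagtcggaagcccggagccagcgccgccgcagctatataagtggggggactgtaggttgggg

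Nab1 was expressed in silenced neurons and rose with both stimuli, with opposite time courses. Its controls held 328 to 404 normalized reads (median 368). BDNF gave 1534 and 1398 after 1 h, 559 and 543 after 6 h and 543 and 499 after 10 h. KCl gave 694 and 525 after 1 h, 864 and 827 after 6 h and 793 and 908 after 10 h. BDNF was thus highest at 1 h and KCl at 6 and 10 h, with all stimulated libraries above all controls. The change was 2.01 at BDNF 1 h (SE 0.09, adjusted p = 1.43e-13) and 0.60 and 0.52 later, against 0.73 at KCl 1 h (adjusted p = 1.21e-06) and 1.21 and 1.22 later (SE 0.09 each). BDNF was above KCl by 1.28 at 1 h (SE 0.11) and below it by -0.62 at 6 h (adjusted p = 0.000115) and -0.71 at 10 h (adjusted p = 4.71e-05).

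Nab2, which is itself reported as a target of Egr1 in other cells, was called higher than controls only with BDNF among these stimuli and times. Its controls held 61.7 to 85.04 normalized reads (median 67.7). BDNF gave 844 and 814 after 1 h, 313 and 276 after 6 h and 249 and 297 after 10 h. KCl gave 60.5 and 39.6 after 1 h, 92.4 and 69.5 after 6 h and 92.9 and 66.4 after 10 h. All BDNF libraries were above all controls and all KCl libraries, and the KCl libraries of 6 and 10 h overlapped the controls. The change was 3.54 at BDNF 1 h (SE 0.16, adjusted p = 1.40e-13), 2.05 at 6 h and 1.94 at 10 h. With KCl it was -0.51 at 1 h (SE 0.16, adjusted p = 0.0130), a call that was lost on omitting library B of KCl 1 h (-0.21, adjusted p = 0.417), and was not called at 6 h (0.19, interval -0.16 to 0.53) or 10 h (0.16, interval -0.18 to 0.50). The BDNF to KCl difference of Nab2 at 1 h, 4.05 (SE 0.20, adjusted p = 1.06e-12), was the 5th largest in favor of BDNF of all genes tested. Nemp1, which overlaps Nab2 on the other strand, changed by -0.999 at KCl 1 h (SE 0.13, adjusted p = 1.29e-06) and by 0.01 at BDNF 1 h (adjusted p = 0.956), and its part in the values of Nab2 was not tested.

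Egr proteins bind the letters GCGTGGGCG, which contain the shorter GCGTGGGC, so sequence of the Nab genes with these letters is given. In the 250 bases before the RefSeq start of Nab1, 2 matches to GCGTGGGCG were found on the 2 strands, and 1 of them is shown within chr1:52500539-52500568 (minus strand, GRCm38.p6). The bases before the start of Nab2 (chr10:127666711-127666953, minus strand, GRCm38.p6) hold 1 match to GCGTGGGC, in capitals as in the window of Nab1, and none to the longer form.
Nab1 match 2: cactcggccgcGCGTGGGCgggagccggag
Nab2 promoter: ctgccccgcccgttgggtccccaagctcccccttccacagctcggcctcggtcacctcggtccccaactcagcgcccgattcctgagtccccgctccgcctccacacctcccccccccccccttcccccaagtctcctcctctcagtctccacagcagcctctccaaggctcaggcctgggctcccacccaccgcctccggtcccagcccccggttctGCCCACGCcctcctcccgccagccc
Of the 32851 promoter windows 0.536% held GCGTGGGCG and 1.37% held GCGTGGGC on either strand. These are letters in a window and not measured binding.

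**Figure D2:**
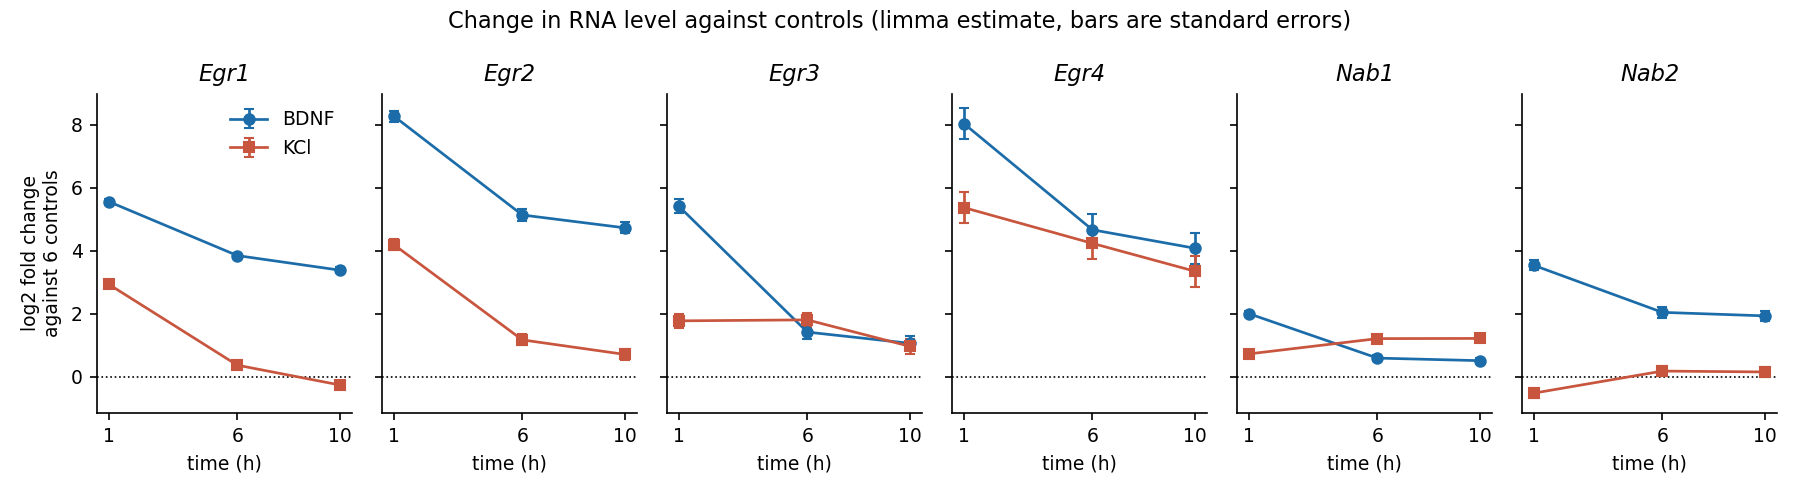
Change in RNA level against the 6 controls (log2, limma estimate) by time for BDNF (circles) and KCl (squares), with bars for standard errors, 1 panel per gene on a shared axis. Egr3 at 6 h is 1.42 for BDNF and 1.81 for KCl after 5.41 and 1.78 at 1 h, and Nab1 crosses from 2.01 against 0.73 at 1 h to 0.60 against 1.21 at 6 h.

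The decline from 1 to 6 h was tested within each stimulus and then between them. With BDNF all 6 genes were lower at 6 h than at 1 h, where 33.6% of all genes tested were called, 15.8% higher and 17.7% lower, and the changes ran from -1.41 (Nab1) to -3.99 (Egr3). With KCl Egr1 fell by 2.57 and Egr2 by 3.02, whereas Nab1 rose by 0.48 and Nab2 by 0.70, and 59.6% of all genes were called, 30.9% higher and 28.7% lower. The rise of Nab2 was lost on omitting library B of KCl 1 h (0.40, adjusted p = 0.156). Egr4 with KCl changed by -1.14 (adjusted p = 0.130), a fall that was called on recovered reads by edgeR (-1.22, adjusted p = 0.00479) and DESeq2 (-1.24, adjusted p = 0.0227) and with a pseudocount of 5 (-1.10, adjusted p = 0.0136).

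The change from 1 to 6 h differed between the stimuli for 5 of the 6 genes, where 48.1% of all genes tested were called, 21.8% higher and 26.4% lower. Egr1 fell less with BDNF than with KCl (difference 0.85, SE 0.16, adjusted p = 0.000205). Egr3 had a difference of -4.02 (SE 0.39, adjusted p = 6.57e-08), among the 13 most negative of all genes tested. Nab1 differed by -1.90 (SE 0.16, adjusted p = 1.12e-08) and Nab2 by -2.19 (SE 0.28, adjusted p = 2.89e-06). Egr4 differed by -2.24 (SE 0.85, adjusted p = 0.0507), which was lost when BDNF 1 h library B (adjusted p = 0.107), BDNF 6 h library B (0.111), KCl 1 h library B (0.173) or KCl 6 h library A (0.124) was left out. Egr2 was not called (-0.12, interval -0.75 to 0.52), its own changes being -3.14 (BDNF) and -3.02 (KCl).

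The change from 6 to 10 h was then tested. With BDNF 0 of the 6 genes were called by limma (0.216% of all genes, 0.0740% higher and 0.142% lower), while edgeR and DESeq2 on recovered reads each called Egr1, whose change was -0.46 (adjusted p = 0.144 with limma, 0.0421 with edgeR and 0.00314 with DESeq2). The Egr1 fall was also called by limma without KCl 6 h library A (adjusted p = 0.0695) or B (0.0689), and Egr1 was the only one of the 6 with an unadjusted limma interval below 0 (-0.70 to -0.23). With KCl Egr1 fell by 0.63 (adjusted p = 0.000987) and Egr3 by 0.84 (adjusted p = 0.0425), where 22.5% of all genes were called, 12.9% higher and 9.66% lower. The fall of Egr3 was lost on omitting library B of KCl 10 h (adjusted p = 0.220) or KCl 6 h library A (0.190). The larger change of Egr4 with KCl (-0.89, interval -2.19 to 0.41, adjusted p = 0.357) and that of Egr2 (-0.46, adjusted p = 0.153) were not called. The change from 6 to 10 h was called as different between the stimuli for 0 of the 6 genes by limma, where 7.66% of all genes were called (3.10% higher, 4.56% lower), nor by edgeR or DESeq2, and 0 of the 6 had an unadjusted limma p below 0.05.

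Counted on the linear scale, the share of the 1 h rise that was left later set the genes apart with BDNF. At 6 h Egr1 kept 29.0% of its rise and Nab2 29.5%, Nab1 16.9%, Egr2 11.1%, Egr4 9.26% and Egr3 4.02%. With KCl Egr1 kept 4.43% at 6 h and Egr2 7.16%, whereas Egr4 kept 40.9%, Egr3 101% and Nab1 reached 196%. These percentages come from group means of 2 libraries and carry no test.

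A direct comparison of the stimuli at 1 h had all 6 genes higher with BDNF, where 42.8% of all genes were called (24.6% higher, 18.2% lower), with differences from 1.28 (Nab1) to 4.08 (Egr2). At 6 h Egr1, Egr2 and Nab2 were higher with BDNF and Nab1 was higher with KCl, where 57.3% of all genes were called (29.6% higher, 27.8% lower). At 10 h those 4 genes were called with unchanged directions, where 45.0% of all genes were called (23.1% higher, 21.8% lower). The Nab2 difference was 1.86 at 6 h and 1.78 at 10 h (SE 0.20 each).

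To compare genes with each other, levels were divided by exon length, giving normalized reads per kb. The 4 Egr genes summed to 60.7 ± 4.53 per kb in controls (SD, n = 6), with Egr1 at 81.8% of the sum. After 1 h the sum reached 4339 with BDNF and 573 with KCl. Egr1 then held 54.2% of it with BDNF and 67.0% with KCl, Egr2 26.4% and 11.8%, Egr4 14.1% and 17.9% and Egr3 5.30% and 3.26%. At 10 h with BDNF, Egr1 was back at 77.7% of a sum of 669, whereas with KCl the sum of 81.0 was 51.2% Egr1, 28.9% Egr4 and 12.8% Egr3. So the late Egr pool was mostly Egr1 after BDNF and had a larger share of Egr4 after KCl.

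The 2 Nab genes summed to 113 per kb in controls, 639 at BDNF 1 h and 166 at KCl 1 h, with Nab2 at 21.4%, 44.1% and 10.2% of the sum. Per kb the Nab sum was 1.67 to 2.05 times the Egr sum in the controls. That ratio was 0.148 at BDNF 1 h, 0.255 at 6 h and 0.329 at 10 h. With KCl it went from 0.288 after 1 h to 1.74 after 6 h and 2.91 after 10 h. Per kb, Egr reads therefore exceeded Nab reads in all 6 BDNF libraries and in KCl at 1 h. Nab reads exceeded Egr reads in the controls and in KCl at 6 and 10 h. The length used is that of all annotated exons of a gene, so these are not counts of transcripts.

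**Figure D3:**
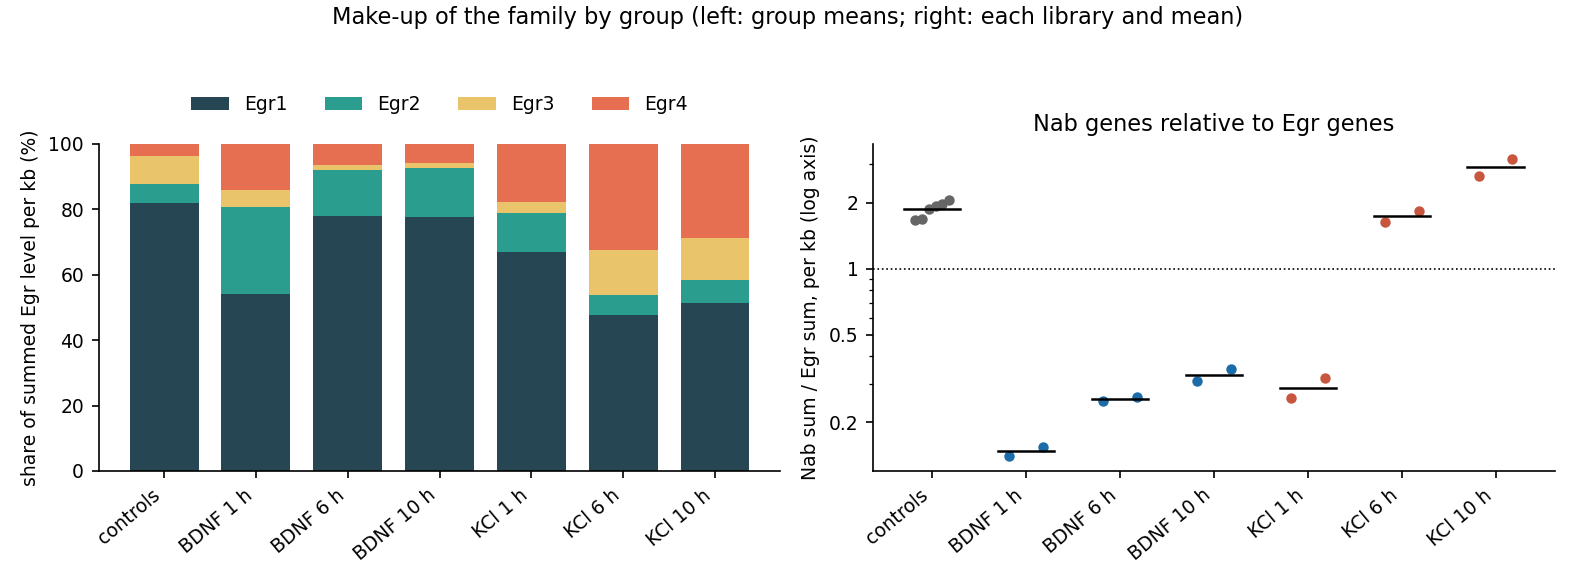
Left, the mean share of each Egr gene in the summed Egr level per kb, in percent by group. Right, the Nab sum divided by the Egr sum per kb in each library (dots) with group means (bars) on a log axis, where all BDNF libraries lie below 1 and all controls between 1.67 and 2.05.

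Across the 18 RNA libraries, which share their controls and size factors, the log2 levels of Egr1 and Egr2 had a Pearson r of 0.986 and those of Egr1 and Nab1 had the lowest r of the 15 pairs, 0.529. Nab1 and Nab2 had an r of 0.557, whereas Nab1 and Egr3 had 0.876. Among all genes tested, the 3 most like Egr1 were Egr2, Senp2 (r = 0.980) and Rbbp7 (0.957), and those most like Egr2 were Egr1, Senp2 (0.979) and Arc (0.972). Senp2, a SUMO protease, had 870 to 943 normalized reads in controls and 1296 and 1338 at BDNF 1 h, so a gene with a small range followed the same order. Egr3 was most like Bahd1 (0.979), Slc38a1 (0.969) and Vasp (0.959), and Egr4 like March11 (0.975), Btbd10 (0.968) and Plk2 (0.967). Nab1 was most like Ranbp2 (0.978), Kcna1 (0.964) and Tmem198 (0.962), and Nab2 like Iffo2 (0.970), Eif1a (0.967) and Serpinb2 (0.958). These are descriptions over 18 libraries of 9 groups, picked as the highest of 16209 genes.

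The genes that act before the Egr family were taken as a list of 22 MAPK pathway and SRF genes, of which 20 were tested. At BDNF 1 h 10 of the 20 were higher and 2 lower than controls, with a median change of 0.20 against 0.00 for all genes tested, of which 21.3% were higher and 19.0% lower. Srf, the transcription factor that binds CArG boxes, rose by 1.65 (adjusted p = 2.40e-14), while the kinase gene Map2k1 fell by 0.20 (adjusted p = 0.0390) and Creb1, which encodes CREB, by 0.16 (adjusted p = 0.0557). At KCl 1 h 8 were higher and 3 lower (median 0.13; 26.5% and 28.2% of all genes), Srf rose by 1.09 (adjusted p = 2.32e-11) and the kinase gene Braf by 0.56, and Creb1 fell by 0.23. After 6 h of BDNF 6 were higher and 5 lower (median -0.04, 22.1% and 21.1% of all genes). After 10 h the counts were again 6 and 5 (median 0.00, 21.1% and 19.5% of all genes). With KCl the counts were 9 and 3 at 6 h (median 0.15, 33.4% and 33.1% of all genes). At KCl 10 h they were 10 and 2 (median 0.20, 29.0% and 28.2% of all genes).

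Of 16 genes reported as Egr targets in neurons or other cells, 15 were tested. At BDNF 1 h 9 were higher and 2 lower (median 0.28, 21.3% and 19.0% of all genes). The rises were led by the plasticity gene Arc at 7.56 (SE 0.15) and the cyclooxygenase gene Ptgs2 at 3.00 (SE 0.41). The falls were those of Cdk5r1 by 0.31 and of the GABA receptor subunit gene Gabra4 by 0.26. At KCl 1 h 8 were higher and 1 lower (median 0.33, 26.5% and 28.2% of all genes). Ptgs2 rose there by 4.18 and Arc by 2.26, and Cdk5r1 fell by 0.34. With BDNF 8 of the 15 were higher and 1 lower at 6 h (median 0.37, 22.1% and 21.1% of all genes), and 7 and 1 at 10 h (median 0.38, 21.1% and 19.5%). With KCl 5 were higher and 2 lower at 6 h (median 0.09, 33.4% and 33.1% of all genes), and again 5 and 2 at 10 h (median 0.02, 29.0% and 28.2%). Of 6 myelin genes that Egr2 activates in Schwann cells, 3 had a mean under 10 over the libraries. At BDNF 1 h Prx rose by 0.87 and Mbp by 0.25, where 21.3% of all genes were higher. At KCl 1 h 0 of the 3 tested were called, against 54.7% of all genes.

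Nab proteins bind Chd4, the helicase of the NuRD repressor complex. Of 13 NuRD subunit genes, 7 were higher and 0 lower at BDNF 1 h (median 0.20, 21.3% and 19.0% of all genes), with Rbbp7 at 0.78 (SE 0.05) and Chd4 at 0.43 (SE 0.07). At KCl 1 h 9 were higher and 0 lower (median 0.27, 26.5% and 28.2% of all genes), with Chd4 at 0.39 and Mbd3 at 0.37. At 6 h 3 were higher and 3 lower with BDNF (22.1% and 21.1% of all genes) and 3 and 1 with KCl (33.4% and 33.1%).

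Chromatin near the 6 genes was read from ATAC-seq peaks whose nearest protein-coding start site belonged to one of them within 100 kb. There were 21 such peaks, 3 for Egr1, 5 for Egr2, 7 for Egr3, 1 for Egr4, 4 for Nab1 and 1 for Nab2, of which all 21 were among the 56383 tested with edgeR. Nearness is no proof that a peak acts on the gene. Values are counts scaled by LOESS offsets.

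At BDNF 1 h 9 of the 21 peaks were more open than in controls and 0 were less open, where 17.3% of all peaks tested were called (12.4% more open, 4.97% less), with 4 left without BDNF 1 h library B. Of these peaks 4 lay at the promoters of Egr1, Egr4, Nab1 and Nab2, and 5 lay away from promoters, 1 near Egr1, 1 near Egr2 and 3 near Egr3. The distal Egr1 peak was near the threshold (0.43, SE 0.18, edgeR adjusted p = 0.0989). Its BDNF 1 h values (122 and 125 scaled counts) lay within the control range (65.4 to 126). Its call changed in 10 of 18 single-library omissions. At BDNF 6 h 3 of the 21 were more open (10.6% of all peaks, 8.79% more open and 1.86% less), and at BDNF 10 h 0 were called by edgeR (9.36%, 7.53% more open and 1.83% less). At BDNF 10 h 3 of the 21 had an unadjusted p below 0.05, and limma and edgeR with TMM scaling each called 1. KCl gave 1 more open peak at 1 h (8.30% of all peaks, 5.12% more open and 3.17% less), 1 more open and 1 less open at 6 h (7.51%, 5.51% more open and 2.00% less), and 4 more open at 10 h (7.86%, 5.87% more open and 1.99% less). At KCl 10 h the share of all called peaks that were more open was 74.7% with LOESS offsets and 63.2% with TMM scaling.

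**Figure D4:**
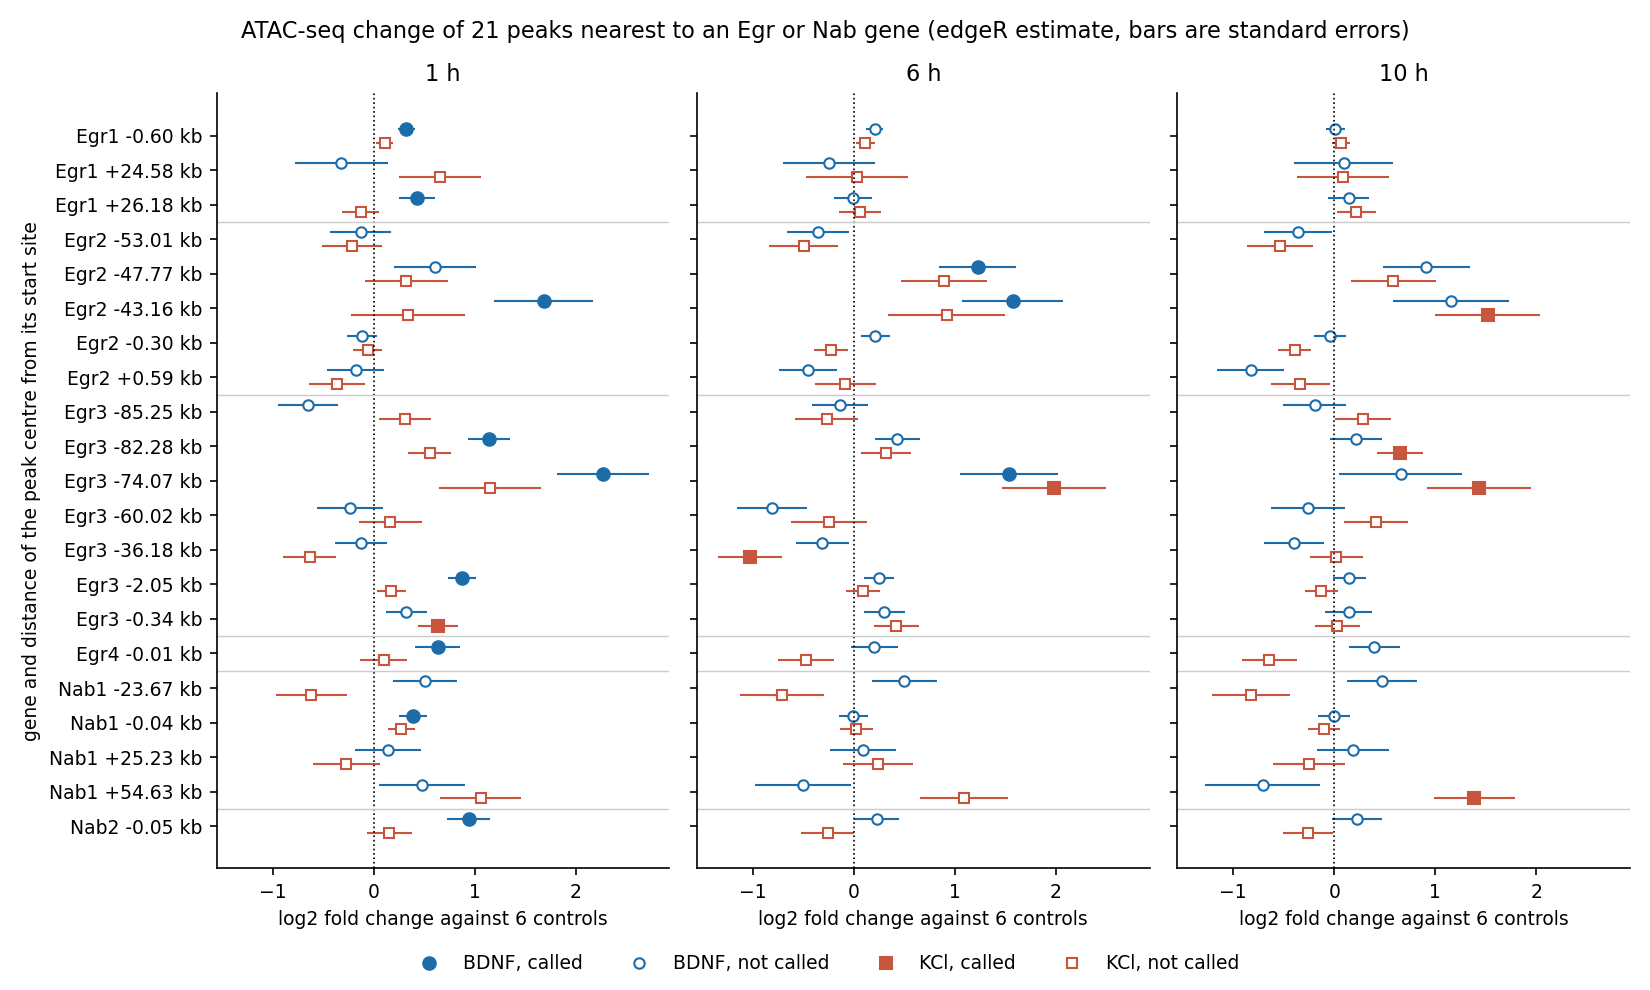
ATAC-seq change against the 6 controls (log2, edgeR estimate with standard error) of the 21 peaks, ordered by gene and by distance of the peak center from the start site in kb, for BDNF (circles) and KCl (squares) at each time, filled where called. The largest change is that of the Egr3 peak at -74.07 kb at BDNF 1 h (2.27), and the promoter peak of Egr2 at -0.30 kb stays at -0.12 for BDNF and -0.06 for KCl at 1 h.

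Promoter peaks changed unequally. The promoter peak of Nab2 (chr10:127666450-127667062) had 34.6 to 90.2 scaled counts in controls (median 50.7), 105 and 115 at BDNF 1 h and 62.7 and 65.3 at KCl 1 h. Its change was 0.94 at BDNF 1 h (SE 0.21, adjusted p = 0.000273) and 0.15 at KCl 1 h (adjusted p = 0.754), and BDNF exceeded KCl by 0.78 (SE 0.26, adjusted p = 0.0339). That difference was lost with DESeq2 (0.72, adjusted p = 0.107), with limma (0.77, adjusted p = 0.127) and when any 1 of its 4 libraries was left out (adjusted p from 0.101 to 0.234). Against the 1 h controls alone the BDNF change was 0.64 (adjusted p = 0.102).

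The promoter peak of Egr4 (chr6:85513304-85513886) had 38.2 to 63.8 scaled counts in controls and 80.7 and 82.9 at BDNF 1 h, a change of 0.63 (SE 0.22, adjusted p = 0.0430), and that of Nab1 (chr1:52499707-52500975) had 119 to 178 in controls and 173 and 193 at BDNF 1 h, a change of 0.39 (SE 0.14, adjusted p = 0.0433). Both calls were lost without either BDNF 1 h library, the Egr4 call also without control 1 h library B (0.54, adjusted p = 0.116), and the Nab1 call also with TMM scaling (0.32, adjusted p = 0.126), with DESeq2 (0.31, adjusted p = 0.201) and against the 1 h controls alone (0.42, adjusted p = 0.117). The peak over the start of Egr1 had 415 to 479 scaled counts in controls and 553 and 578 at BDNF 1 h, a change of 0.32 (SE 0.09, adjusted p = 0.00358) that was lost with TMM scaling (0.21, adjusted p = 0.107), with DESeq2 (0.20, adjusted p = 0.108) and without BDNF 1 h library B.

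The promoter peak of Egr2 (chr10:67537152-67537980), the gene with the largest RNA rise, was not called at 1 h for either stimulus. It had 133 to 171 scaled counts in controls, 120 and 153 at BDNF 1 h and 134 and 150 at KCl 1 h, with changes of -0.12 (SE 0.15, adjusted p = 0.689) and -0.06 (SE 0.14, adjusted p = 0.866). The promoter peak of Egr3 had 45.9 to 77.3 in controls, 64.8 and 91.2 at BDNF 1 h and 83.1 and 111 at KCl 1 h. It was called for KCl (0.63, SE 0.19, adjusted p = 0.0347), but not against the 1 h controls alone, with limma or without KCl 1 h library B. For BDNF it was not called (0.32, SE 0.20, adjusted p = 0.355). The difference between BDNF and KCl at 1 h was not called either (-0.31, SE 0.24, edgeR adjusted p = 0.445).

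Egr3 had the clearest distal changes. The peak 74.1 kb before Egr3, in an intron of Pebp4 (chr14:70003049-70003224), had 1.32 to 9.44 scaled counts in controls (median 4.40), 24.6 and 26.7 at BDNF 1 h and 9.40 and 13.8 at KCl 1 h. At 6 h it had 15.1 and 15.5 with BDNF and 19.4 and 23.8 with KCl, and at 10 h 5.98 and 10.3 with BDNF and 12.7 and 15.98 with KCl. BDNF libraries were thus highest at 1 h and KCl libraries at 6 h, both above all controls at those times. The change between times was not tested for peaks. The changes were 2.27 at BDNF 1 h (SE 0.46, adjusted p = 4.25e-05) and 1.53 at BDNF 6 h (adjusted p = 0.0272). With KCl they were 1.98 at 6 h (SE 0.51, adjusted p = 0.00835) and 1.43 at 10 h (adjusted p = 0.0844). The KCl 10 h call changed in 10 of 18 single-library omissions. KCl 1 h was not called (1.15, adjusted p = 0.175), nor was the difference between BDNF and KCl at 1 h (1.11, SE 0.53, edgeR adjusted p = 0.172). The KCl 6 h call was lost without KCl 6 h library A (2.13, adjusted p = 0.148).

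A second intronic Pebp4 peak, 82.3 kb before Egr3 (chr14:69994630-69995221), had 34.9 to 69.6 scaled counts in controls and 97.9 and 113 at BDNF 1 h. Its change was 1.14 (SE 0.21, adjusted p = 5.95e-06). Its difference between BDNF and KCl at 1 h was not called (0.59, SE 0.25, edgeR adjusted p = 0.127). With KCl it had 67.9 and 72.9 after 1 h, which was not called (0.55, adjusted p = 0.122), and 74.4 and 75.9 after 10 h (0.65, adjusted p = 0.0750), a call that was lost against the 10 h controls alone (0.45, adjusted p = 0.477) and on omitting any of 4 control libraries (adjusted p from 0.106 to 0.147). The broad peak 2.05 kb before Egr3 (chr14:70074494-70075820) had 101 to 133 in controls, 215 and 224 at BDNF 1 h and 115 and 153 at KCl 1 h. Its change was 0.87 with BDNF (SE 0.14, adjusted p = 1.48e-07) and 0.17 with KCl (adjusted p = 0.549), with a difference of 0.70 between them (SE 0.17, adjusted p = 0.00235) that was lost on omitting library A of KCl 1 h (0.52, adjusted p = 0.111). The BDNF 1 h calls of these 3 Egr3 peaks held under each other scaling, tool, threshold, control set and left-out library that was run.

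The centers of 2 of these peaks are given with the distal peak of Egr2 that was called (chr10:67492221-67492405, 43.2 kb before the gene, intergenic), because they differ in the letters they hold. They are read on the plus strand of GRCm38.p6 at chr14:70003037-70003236, chr14:70075058-70075257 and chr10:67492214-67492413. Capitals mark matches to TGANTCA, where N is any base, a pattern wider than the AP-1 site (Fos and Jun proteins) that it takes in. The match was TGACTCA in the Egr3 peak at -74.1 kb and TGATTCA in the Egr2 peak. In the Egr3 peak at -2.05 kb capitals mark GCGTGGGC, here within GCGTGGGCG.
Egr3 peak 3: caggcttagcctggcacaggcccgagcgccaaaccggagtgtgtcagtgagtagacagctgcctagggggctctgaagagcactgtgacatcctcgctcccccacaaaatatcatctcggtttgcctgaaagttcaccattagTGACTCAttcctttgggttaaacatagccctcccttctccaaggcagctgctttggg
Egr3 peak 6: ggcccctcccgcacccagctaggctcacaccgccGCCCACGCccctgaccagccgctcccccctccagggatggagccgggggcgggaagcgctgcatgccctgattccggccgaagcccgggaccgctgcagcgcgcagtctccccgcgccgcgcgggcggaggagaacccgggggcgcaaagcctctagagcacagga
Egr2 peak 3: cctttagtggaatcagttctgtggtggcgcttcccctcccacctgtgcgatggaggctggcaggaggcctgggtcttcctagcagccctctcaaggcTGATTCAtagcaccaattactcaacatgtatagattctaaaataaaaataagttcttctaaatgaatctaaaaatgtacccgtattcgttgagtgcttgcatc
Among all 56383 peak centers 12.98% held TGANTCA, 0.796% GCGTGGGC, 0.942% a CArG box and 12.0% TGACG. Of the 21 centers near the 6 genes 3 held TGANTCA, 2 held GCGTGGGC, 2 a CArG box and 3 TGACG.

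The Egr2 peak at -43.2 kb had 1.38 to 10.7 scaled counts in controls (median 4.44), 10.4 and 25.3 at BDNF 1 h, 14.4 and 19.6 at BDNF 6 h and 15.1 and 17.3 at KCl 10 h. Of these 3 stimulated groups, the lower library of BDNF 1 h overlapped the controls. Both KCl 1 h libraries (5.10 and 8.71) and 1 of the KCl 6 h libraries (2.70 and 14.2) also lay within the control range. The 2.70 came from KCl 6 h library B, the ATAC library with the fewest reads in peaks (1.24 M). For this peak the difference between BDNF and KCl at 1 h was not called (1.34, SE 0.59, edgeR adjusted p = 0.136). Its change was 1.68 at BDNF 1 h (SE 0.49, adjusted p = 0.00833), lost without BDNF 1 h library B (0.50, adjusted p = 0.792), 1.57 at BDNF 6 h (adjusted p = 0.0264) and 1.52 at KCl 10 h (adjusted p = 0.0665). Its neighbor 47.8 kb before Egr2 (chr10:67487598-67487814) had 8.64 to 14.3 in controls and 26.7 and 29.7 at BDNF 6 h, a change of 1.22 (SE 0.38, adjusted p = 0.0224). Each BDNF 6 h and KCl 10 h call near Egr2 and Egr3 was lost when either library of its own group was left out.

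Peaks near Nab1 included 1 that moved with KCl alone among the calls, 54.6 kb beyond its start (chr1:52435997-52436218, intergenic). It had 5.95 to 21.1 scaled counts in controls, 27.3 and 37.9 at KCl 10 h and 5.92 and 9.55 at BDNF 10 h. Its change was 1.39 at KCl 10 h (SE 0.40, adjusted p = 0.0210), lost on omitting library B of KCl 10 h (1.10, adjusted p = 0.354), and BDNF differed from KCl by -2.10 (SE 0.60, adjusted p = 0.0539), a difference that was lost on omitting library A (adjusted p = 0.166) or B (0.291) of BDNF 10 h or library B of KCl 10 h (0.334). Between BDNF and KCl 4 of the 21 peaks were more open with BDNF at 1 h and 1 with KCl, where 14.8% of all peaks were called (9.33% and 5.50%). These 5 calls fell to 3 with DESeq2, to 1 with limma, to 2 without library A of either group and to 1 without library B of either group. With edgeR 0 differed at 6 h (3.61%, 2.17% and 1.44%), where 4 had an unadjusted p below 0.05 and TMM scaling gave 1, and 1 in each direction differed at 10 h (2.02%, 1.21% and 0.814%).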

How the data were processed

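The authors mapped RNA reads to mm10 with TopHat2 and GENCODE gene models and deposited a normalized signal per gene, the read count over the library's DESeq2 size factor. The read counter is not given in the sources used here. For ATAC-seq the authors used Bowtie2 for alignment, MACS2 for peaks in each sample and DiffBind for reads in consensus peaks. The deposited peak values are whole-number counts. Fold changes and p-values of the authors' own comparisons were not used, and their gene table gave only symbols (26203 of 26709 genes named, with GENCODE).

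Members and gene lists were chosen with earlier results of these data known. Named genes are the 6 members, genes whose exons overlap theirs, up to 2 genes of each list with the largest called rises and 2 with the largest falls in a comparison, and the 3 genes most like each member, with Pebp4 (a gene that holds peaks) and Cldn5 (a marker at 0) named after their values were seen. RNA was tested with limma 3.58.1 (R 4.3.3; trend, robust) on log2(value + 1), mean at least 10, with the 6 controls pooled. ATAC was tested with edgeR 4.0.16 (quasi-likelihood, LOESS offsets). Tests were two-sided, with Benjamini-Hochberg adjustment and calls below 0.1. Whole reads (100% of values, within 0.01) were recovered for edgeR and DESeq2 1.42.0 as alternatives. Other pseudocounts, filters, scalings, control sets and single-library omissions were tried, and scripts were tested on simulated data. Promoter sequences are from RefSeq (GRCm38.p6), which gave no Egr3 entry. Some items are not reported here.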

Additional observations from a re-analysis of the deposited data

Results flagged for a closer look

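The change from 1 to 6 h differed between BDNF and KCl for 5 of the 6 genes, by the limma test of the difference itself (BDNF minus KCl, log2). The difference was 0.85 for Egr1, -4.02 for Egr3, -2.24 for Egr4, -1.90 for Nab1 and -2.19 for Nab2. For Egr4 the call was lost when any 1 of 4 libraries was left out (adjusted p up to 0.173). In the 6 controls, 0 of 27 genes and peaks checked had a library standing apart by Dixon's criterion, where chance marks about 1 in 20.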

How the results depend on the processing

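Of the RNA values of single genes under another pseudocount, filter, scaling, tool, threshold, control set or block, 839 kept their direction and side of the threshold, 5 lost and 5 gained a call and 3 changed sign, and of the single-library omissions 1792 kept both, 9 lost and 5 gained a call and 30 changed sign. For the ATAC peaks only results called by edgeR with LOESS offsets, and promoter peaks at 1 h, were counted. Most gained calls could therefore not enter, and these numbers are not like those of RNA. They were 161, 50, 2 and 3, and 604, 74, 0 and 6. Counts of called genes were 1 with edgeR and 1 with DESeq2 for BDNF 10 h against 6 h (0 with limma) and 1 below 0.01 for KCl 10 h against 6 h (2 below 0.1). Counts of called peaks with BDNF were 1 with TMM and 1 with limma at 10 h (0 with LOESS), and 0 below 0.01 and 1 against controls of the same time at 6 h (3). With KCl they were 3 with TMM and 0 below 0.01, against controls of the same time and with limma at 1 h (1), 1 below 0.01, 1 against controls of the same time and 1 within 50 kb at 6 h (2), and 0 below 0.01, 1 against controls of the same time, 2 with limma and 1 within 50 kb at 10 h (4). For BDNF against KCl they were 3 with DESeq2, 1 below 0.01 and 1 with limma at 1 h (5), 1 with TMM at 6 h (0), and 1 with DESeq2, 0 below 0.01 and 1 within 50 kb at 10 h (2). Without single libraries the peak counts ran from 4 to 9, 0 to 3 and 0 to 1 for BDNF 1, 6 and 10 h, from 1 to 2, 0 to 3 and 0 to 4 for KCl, and from 1 to 5, 0 to 1 and 0 to 2 for BDNF against KCl, and the gene counts from 0 to 1 for BDNF 10 h against 6 h and 1 to 2 for KCl. Over all peaks TMM called 7995 at KCl 10 h and 6527 at KCl 6 h, LOESS 4430 and 4237. Values that changed sign were all uncalled: Egr2 in the change from 6 to 10 h (-0.00795 with a pseudocount of 5), Egr3 in controls at 6 h (0.0296 with edgeR, 0.0134 with DESeq2), and at KCl 1 h the Egr1 promoter peak (-0.13 with TMM, -0.15 with DESeq2) and the Nab2 promoter peak (-0.15 with same-time controls). Without single libraries the Egr1 promoter peak at KCl 1 h ran from -0.00867 to 0.22, the Egr4 promoter peak from -0.17 to 0.30, and the Egr2 promoter peak from -0.30 to 0.055 (BDNF 1 h), -0.14 to 0.0269 (KCl 1 h) and -0.24 to 0.11 (their difference). Egr2 ran from -0.25 to 0.0241 and -0.0844 to 0.19 in the changes from 1 to 6 h and 6 to 10 h, and in controls from -0.42 to 0.24 at 6 h and -0.14 to 0.42 at 10 h. Egr3 ran from -0.11 to 0.30 (BDNF against KCl at 10 h), -0.31 to 0.38 (KCl 6 h against 1 h) and -0.27 to 0.15 (controls at 6 h), and Egr4 from -0.80 to 0.59 (controls at 10 h). Nab1 ran from -0.0913 to 0.10 (KCl 10 h against 6 h), -0.19 to 0.00981 (change from 6 to 10 h) and -0.00796 to 0.22 (controls at 6 h). Nab2 ran from -0.24 to 0.0172 (BDNF 10 h against 6 h), -0.27 to 0.21 (KCl 10 h against 6 h), -0.0176 to 0.39 (KCl 6 h), -0.0809 to 0.40 (KCl 10 h), -0.32 to 0.16 (change from 6 to 10 h) and -0.30 to 0.0415 (controls at 10 h). The cause of these shifts was not tested. The letters A and B of the RNA columns are not the label numbers. Deviations of 36 same-letter pairs had r from -0.31 to 0.42 (median 0.0649, 13 over 0.1). So mixed a set of r values cannot decide whether the letters pair samples. A replicate block on the letters left 6 genes called at BDNF 1 h and 6 at KCl 1 h and changed no call. For ATAC-seq, No paired analysis was possible because the columns carry no replicate number. Depth limits Egr4 in controls (1 to 31 reads) and peaks with few counts.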
